A study of Homo sapiens with 4 samples.

Results

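Wnt signalling was followed through 57 protein-coding genes, taken by their symbols: the WNT ligands, the Frizzled (FZD) receptors, the SFRP and DKK inhibitors, LGR4 to LGR6, LRP5, LRP6, ROR1, ROR2, RYK, CTNNB1, APC, AXIN1, AXIN2, RNF43, ZNRF3, TCF7, TCF7L1, TCF7L2, LEF1 and NKD1. They are 57 of the 60483 gene identifiers counted, and 36 of them had enough reads to be tested. The cells were C4-2, an established human prostate cancer line derived from LNCaP, at passage 20 to 30. There were 2 control libraries (C4-2-CON) and 2 libraries of enzalutamide-resistant cells (C4-2-ENZ), grown for 1 month without or with the antiandrogen enzalutamide. The labels do not say whether control cells received vehicle, whether replicates were separate cultures, how many clones the resistant cells came from, or which cells received the FGF-2 named in the growth protocol. Drug exposure goes with the resistant group, so resistance and the presence of the drug cannot be told apart in any result.

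Wnt proteins are lipid-modified secreted ligands. When a ligand joins a Frizzled receptor to LRP5 or LRP6, the destruction complex built on AXIN and APC stops marking beta-catenin (CTNNB1) for degradation, and beta-catenin then acts in the nucleus with TCF and LEF factors. Some ligands, WNT5A among them, signal mostly through ROR1, ROR2 or RYK and the cytoskeleton, without beta-catenin. The ligases RNF43 and ZNRF3 remove Frizzled receptors from the cell surface, and R-spondins bound to LGR receptors hold these ligases back. In prostate cancer the pathway is studied both for growth and for resistance to antiandrogens.

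Gene counts totalled 25589724 to 45033885 per library. Reads that did not align made up 34.16% to 36.95% of the records of control libraries and 20.32% to 20.66% of those of resistant libraries, and their part in the results was not tested. The 8 luminal prostate markers read here summed to 2885 and 2943 CPM in control and 3344 and 3324 CPM in resistant libraries. Of these, 5 were called higher, 2 lower and 1 not called (median log2 fold change 0.38). KLK3, the gene of prostate-specific antigen and one of those lower, had 663 and 692 CPM in control and 487 and 477 CPM in resistant libraries. It was named after its values were seen. CPM is the read count relative to library size, after TMM, the trimmed-mean scaling of edgeR. Markers of other cells were low: 10 fibroblast genes summed to 9.31 and 11.4 CPM in control and 9.42 and 8.93 CPM in resistant libraries, with COL1A2 at 0 counts in all 4. The 8 endothelial genes summed to 5.75 and 4.99 CPM in control and 4.83 and 4.15 CPM in resistant libraries. The 8 leukocyte genes summed to 3.10 and 2.85 CPM in control and 4.87 and 5.19 CPM in resistant libraries, with CD3E at 0 counts in all 4. The 8 neural stem genes summed to 4.28 and 5.49 CPM in control and 2.86 and 2.80 CPM in resistant libraries. The part of these cell types in the results was not tested.

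Among the members, 3 ligands (WNT5A, WNT4 and WNT9A) and 4 Frizzled receptors (FZD7, FZD1, FZD2 and FZD8) rose. So did the WNT5A receptor ROR2, both LRP co-receptors and the ligase RNF43. Inside the cell CTNNB1, APC, AXIN2 and LEF1 rose too, and kept their call in the 11 alternative settings. The 2 Frizzled genes with the highest level per exon length in control cells, FZD6 and FZD4, were lower in resistant cells. So were the ligands WNT8B and WNT10A and the inhibitor SFRP1, but the calls of WNT10A and SFRP1 ended with DESeq2. Of the 36 tested members, 18 were called higher and 5 lower at an edgeR adjusted p below 0.05, and 13 were not called. Called members were thus 63.9%. That is near the 64.7% of all 20325 genes tested and below the 73.7% of protein-coding genes tested, the class of every member. By direction, 50% of tested members were higher and 13.9% lower. The background was 33.0% higher and 31.7% lower over all genes tested. Over the protein-coding genes tested it was 42.3% higher and 31.4% lower. Rises of at least 2-fold were called for 9 of the 36 tested members, against 7.58% of all genes and 8.76% of protein-coding genes tested. Falls of that size were called for 2 of the 36, against 10.1% and 7.26%. In bulk RNA, fewer cells of a type and less RNA per cell cannot be told apart. The median log2 fold change of tested members was 0.45, against 0.09 over protein-coding genes. No test of the list as a whole was made. When reads were corrected for exon length and GC content, 18 members were higher and 10 lower. In that setting 6691 of all genes tested were called higher and 6343 lower, so the small share of falls among members depended on the setting.

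**Figure D1:**
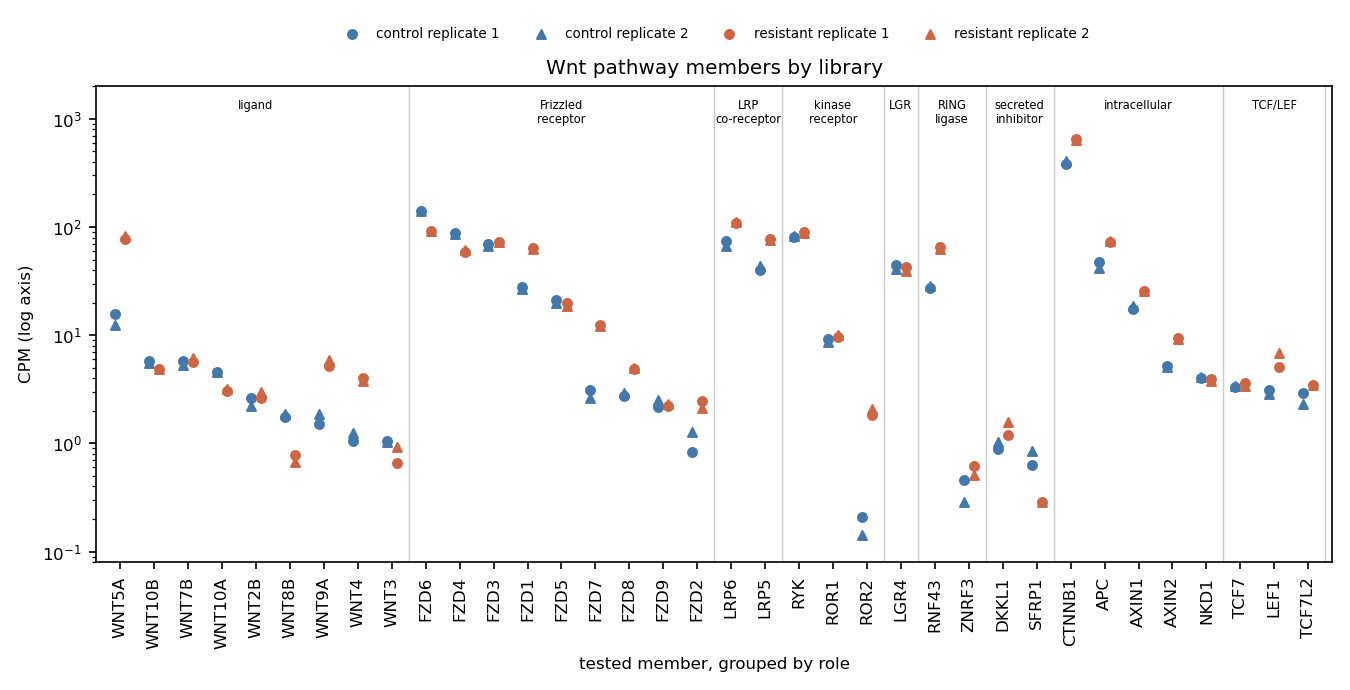
Level in CPM (log axis) of the 36 tested members in each of the 4 libraries, grouped by role and ordered by control level. WNT5A, FZD7 and ROR2 show both resistant libraries far above both control libraries, from 12.3 and 15.6 to 77.9 and 83.4 CPM for WNT5A.

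The upstream DNA of 6 starts is shown for the members these results turn on: the 3 ligands that rose, the ligand that fell most, the receptor that rose most and the ligase that rose. Each line gives the 250 bases before a RefSeq gene start (GRCh38.p14), 5′ to 3′ along the gene's own strand, none of it in an annotated exon of GENCODE 29. WNT5A and RNF43 have 2 starts each in that table, and the inner one is shown. These 2 windows and that of WNT4 lie within the span of the gene itself in GENCODE 29. Capitals mark a match, on either strand, to TGANTCA (the AP-1 motif), which only the RNF43 window held. The motifs CTTTGAA and CTTTGAT, bound by TCF and LEF factors, were searched too and had no match in these 6 windows.
WNT5A (chr3:55481399-55481648, minus strand): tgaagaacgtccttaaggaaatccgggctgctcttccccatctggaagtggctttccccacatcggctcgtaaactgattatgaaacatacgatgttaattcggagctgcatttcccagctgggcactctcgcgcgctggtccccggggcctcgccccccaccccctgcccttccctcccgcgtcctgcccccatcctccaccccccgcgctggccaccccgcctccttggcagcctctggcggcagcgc
WNT4 (chr1:22143098-22143347, minus strand): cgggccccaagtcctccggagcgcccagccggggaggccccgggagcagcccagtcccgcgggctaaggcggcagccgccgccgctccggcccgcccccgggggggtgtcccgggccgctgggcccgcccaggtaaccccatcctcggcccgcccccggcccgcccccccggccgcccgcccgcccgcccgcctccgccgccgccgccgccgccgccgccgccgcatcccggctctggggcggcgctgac
WNT9A (chr1:227947933-227948182, minus strand): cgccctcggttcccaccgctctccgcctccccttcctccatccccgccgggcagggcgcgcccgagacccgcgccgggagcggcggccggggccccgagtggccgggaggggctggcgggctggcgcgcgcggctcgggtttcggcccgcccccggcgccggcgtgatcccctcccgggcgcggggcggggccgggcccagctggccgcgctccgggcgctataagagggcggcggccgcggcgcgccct
WNT8B (chr10:100462759-100463008, plus strand): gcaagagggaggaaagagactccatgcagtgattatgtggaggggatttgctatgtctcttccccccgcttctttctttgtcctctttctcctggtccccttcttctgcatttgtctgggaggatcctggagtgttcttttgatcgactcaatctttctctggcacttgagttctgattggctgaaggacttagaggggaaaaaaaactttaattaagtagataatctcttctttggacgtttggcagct
ROR2 (chr9:91950229-91950478, minus strand): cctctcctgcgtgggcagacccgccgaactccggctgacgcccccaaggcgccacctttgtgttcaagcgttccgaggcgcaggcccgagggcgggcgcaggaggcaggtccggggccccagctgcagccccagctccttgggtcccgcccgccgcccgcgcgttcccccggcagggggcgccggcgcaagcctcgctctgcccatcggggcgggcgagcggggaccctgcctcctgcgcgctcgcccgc
RNF43 (chr17:58402722-58402971, minus strand): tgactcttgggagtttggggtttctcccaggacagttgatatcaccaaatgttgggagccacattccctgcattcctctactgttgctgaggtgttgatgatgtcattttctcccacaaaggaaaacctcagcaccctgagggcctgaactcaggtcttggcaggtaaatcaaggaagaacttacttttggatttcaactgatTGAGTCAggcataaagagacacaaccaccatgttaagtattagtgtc

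The windows of WNT4 and WNT9A were the richest in G and C among these, at 86.8% and 84.4%, and that of ROR2 had 78%. The WNT5A window had 64.4%, and those of WNT8B and RNF43 had 45.2% each. The RefSeq table held 50 starts for 40 of the 57 members. FZD7 and AXIN2 had no entry. A TCF/LEF motif was found in 1 of the 50 member windows, that of DKK1, against 5.94% of 35114 windows of the same length over all genes. None of the 19 windows of members called higher held one. An AP-1 motif was found in 1 of the 50, the RNF43 window above, at 41 to 47 bases before the start, against 6.57% of all windows. A match is a match of letters only, and reads in these data do not bear on binding at any of these windows.

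Among the 19 ligands, 9 passed the count filter. WNT5A, a ligand of beta-catenin-independent signalling, is on chromosome 3 at 55465715 to 55490539 (GRCh38, GENCODE 29). Its level was 15.6 and 12.3 CPM in the control libraries and 77.9 and 83.4 CPM in the resistant libraries. Both resistant libraries were far above both control libraries, a log2 fold change of 2.54 ± 0.081 (SE, with an adjusted p of 2.30e-10 in edgeR), or 5.80-fold. After correcting for length and GC content the value was 2.51, and it ran from 2.37 to 2.71 when any 1 library was left out.

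WNT4, a ligand known from kidney and gonad development, rose from 1.05 and 1.25 CPM to 4.06 and 3.81 CPM (edgeR log2 fold change 1.77 ± 0.17 SE, adjusted p = 2.42e-06). WNT9A, known from joint formation, rose from 1.51 and 1.89 CPM to 5.21 and 5.89 CPM (edgeR log2 fold change 1.69 ± 0.16 SE, adjusted p = 1.74e-06). In these 2 genes, too, the groups did not overlap. That also held for members that were not called, such as WNT10B, and the share over all genes was not counted. WNT8B, a ligand of forebrain development, went the other way, from 1.76 and 1.85 CPM to 0.788 and 0.676 CPM (edgeR log2 fold change -1.30 ± 0.21 SE, adjusted p = 0.00017). These levels rest on 42 and 52 control counts and 38 and 28 resistant counts. WNT10A, a ligand of skin and tooth development, fell from 4.53 CPM in both control libraries to 3.03 and 3.21 CPM (log2 fold change -0.54, edgeR adjusted p = 0.00285). That call ended with DESeq2 (adjusted p = 0.111), and the value ran from -0.35 with total count scaling to -0.85 after the length and GC correction.

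The other 4 tested ligands were not called. WNT10B had 5.75 and 5.56 CPM in control and 4.83 and 4.87 CPM in resistant libraries (log2 fold change -0.22, edgeR adjusted p = 0.102), and WNT3 had a value of -0.41 (adjusted p = 0.176). WNT7B had 5.79 and 5.35 against 5.66 and 6.10 CPM, groups that overlapped, and WNT2B had a log2 fold change of 0.22 (adjusted p = 0.262). WNT2B shares 21.2% of its exonic bases with ST7L on the opposite strand, and whether counting used strand is not given. With the length and GC correction WNT7B and WNT10B were called lower, at log2 fold changes of -0.32 and -0.33, and the sign of WNT2B turned (-0.056). With total count scaling WNT7B was instead called higher (0.27, adjusted p = 0.0456), as was WNT2B (0.40, adjusted p = 0.0443). The remaining 10 ligands had at most 8 counts in any library. WNT1 had 0 in all 4, and WNT11, a beta-catenin-independent ligand, had 0 and 1 in control and 8 and 6 in resistant libraries.

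Levels can be compared between genes only per exon length, as CPM per kilobase. All annotated exons of a gene enter that length, and which transcripts were present was not tested, so orders and shares between genes are approximate. On that scale the 19 ligands summed to 8.76 and 8.32 in control libraries and 17.5 and 18.5 in resistant libraries. WNT5A made up 24.1% and 20.0% of this sum in control libraries and 60.2% and 60.8% in resistant libraries. In control cells WNT10B was above it in both libraries, at 25.0% and 25.4%. In resistant cells WNT10B was second to WNT5A, at 10.5% and 10.0%. The share of WNT5A did not overlap between groups. With 2 libraries against 2, an exact two-sided permutation test of this share gives p = 0.333, the smallest it can give. WNT10A went from 15.2% and 15.9% of the sum to 5.08% and 5.07%, and WNT8B from 9.52% and 10.5% to 2.13% and 1.73%. A lower share here can come with an unchanged level, since the sum itself was higher.

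**Figure D2:**
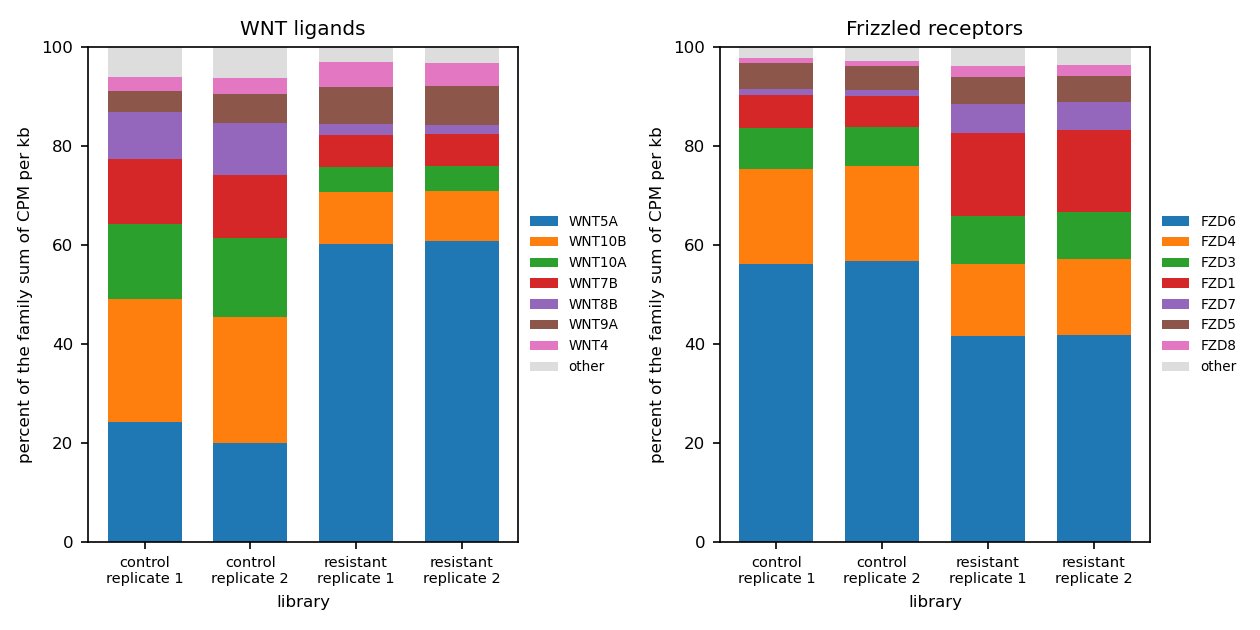
Share of each gene in the summed CPM per kilobase of its family, in percent, for the 19 WNT ligands (left) and the 10 Frizzled receptors (right) in each library, with the 7 leading genes of a family in colour and the others in grey. WNT5A takes 20.0% to 24.1% of the ligand sum in control and 60.2% to 60.8% in resistant libraries, and the FZD6 part shrinks from 56.1% and 56.7% to 41.5% and 41.8%.

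Frizzled receptors are the seven-pass receptors that bind WNT ligands through a cysteine-rich domain. Of 10, 9 were tested, with 4 higher and 2 lower. FZD7, a receptor described in stem cells and several carcinomas, rose from 3.15 and 2.60 CPM to 12.3 and 12.2 CPM (edgeR log2 fold change 2.10 ± 0.11 SE, adjusted p = 8.26e-09). FZD1 rose from 27.8 and 26.8 CPM to 63.7 and 62.3 CPM (edgeR log2 fold change 1.21 ± 0.049 SE, adjusted p = 1.42e-09). Both resistant libraries were above both control libraries for either gene.

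FZD2, a receptor used by WNT5A in some cells, was low, with 0.839 and 1.28 CPM in control and 2.49 and 2.12 CPM in resistant libraries (log2 fold change 1.10, edgeR adjusted p = 0.000933). FZD8 had 2.77 and 2.92 CPM in control and 4.85 and 4.99 CPM in resistant libraries (log2 fold change 0.79, edgeR adjusted p = 0.000206). Its value was 0.44 with the length and GC correction (adjusted p = 0.0102). The rises of FZD7, FZD1, FZD2 and FZD8 kept their call in the 11 alternative settings.

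FZD6 went from 140 CPM in both control libraries to 92.0 and 92.5 CPM (edgeR log2 fold change -0.60 ± 0.040 SE, adjusted p = 9.74e-08). FZD6 is known to act in tissue polarity and can restrain beta-catenin signalling. Its fall was smaller with the length and GC correction, at -0.26 (adjusted p = 9.97e-06). FZD4, the receptor of norrin in retinal vessels, went from 87.3 and 86.6 CPM to 59.1 and 61.4 CPM (edgeR log2 fold change -0.53 ± 0.043 SE, adjusted p = 5.11e-07). Its value ran from -0.73 with the length and GC correction to -0.34 with total count scaling, and it was called in each. FZD4 shares 18.9% of its exonic bases with PRSS23 on the opposite strand, and PRSS23 was higher in resistant cells (log2 fold change 0.28).

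FZD3, FZD5 and FZD9 were not called, with log2 fold changes of 0.08, -0.08 and -0.05 (edgeR adjusted p = 0.115, 0.301 and 0.8). With the length and GC correction FZD3 was called higher (0.18) and FZD5 lower (-0.33). FZD10 had 0 counts in all 4 libraries. Per kilobase, the family sum was 61.2 and 60.9 in control and 54.5 and 54.4 in resistant libraries. This direction turned with total count scaling, where the sum was 57.1 and 57.3 in control and 58.5 and 57.8 in resistant libraries. The makeup of the family does not depend on that scaling. FZD6 gave 56.1% and 56.7% of the sum in control and 41.5% and 41.8% in resistant libraries. FZD1 gave 6.52% and 6.32% in control and 16.8% and 16.4% in resistant libraries, and FZD7 gave 1.33% and 1.11% in control and 5.86% and 5.79% in resistant libraries. The order of levels in control cells was FZD6, FZD4, FZD3, FZD1 and FZD5. In resistant cells FZD1 stood above FZD4: the FZD1 to FZD4 ratio per kilobase was 0.338 and 0.328 in control and 1.14 and 1.08 in resistant libraries, and ratios within a library do not depend on the scaling between libraries.

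LRP5 and LRP6 are the single-pass co-receptors of beta-catenin-dependent signalling, and both rose. LRP5 had 39.7 and 43.4 CPM in control and 76.8 and 76.3 CPM in resistant libraries (edgeR log2 fold change 0.88 ± 0.048 SE, adjusted p = 1.82e-08), or 0.41 after the length and GC correction (adjusted p = 1.01e-07). LRP6 had 74.4 and 67.5 CPM in control and 110 and 111 CPM in resistant libraries (edgeR log2 fold change 0.64 ± 0.051 SE, adjusted p = 4.40e-07). The 2 genes were near each other per kilobase, with LRP5 to LRP6 ratios of 0.895 and 1.08 in control and 1.17 and 1.15 in resistant libraries.

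The kinase-like receptors differed in level and in change. ROR2, a receptor of WNT5A, is on chromosome 9 at 91563091 to 91950162 and had the largest log2 fold change of the 36 tested members. It had 5 and 4 counts in control and 89 and 87 in resistant libraries, which is 0.210 and 0.143 CPM against 1.85 and 2.10 CPM. The edgeR log2 fold change was 3.48 ± 0.31 (SE, adjusted p = 1.09e-06), or 11.1-fold, and ran from 3.22 to 3.76 when 1 library was left out. Even so, ROR2 gave only 2.46% and 2.80% of the summed CPM per kilobase of ROR1, ROR2 and RYK in resistant libraries. RYK, the most abundant of these on that scale, went from 80.2 and 83.5 CPM to 89.8 and 88.6 CPM (log2 fold change 0.12, edgeR adjusted p = 0.0262). The value was 0.31 with total count scaling and 0.28 after the length and GC correction. The call ended with a filter of 1 CPM (adjusted p = 0.113), without resistant replicate 1 (0.169) and without resistant replicate 2 (0.0958). ROR1 had 9.27 and 8.66 against 9.64 and 10.1 CPM and was not called (log2 fold change 0.14, edgeR adjusted p = 0.143).

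**Figure D3:**
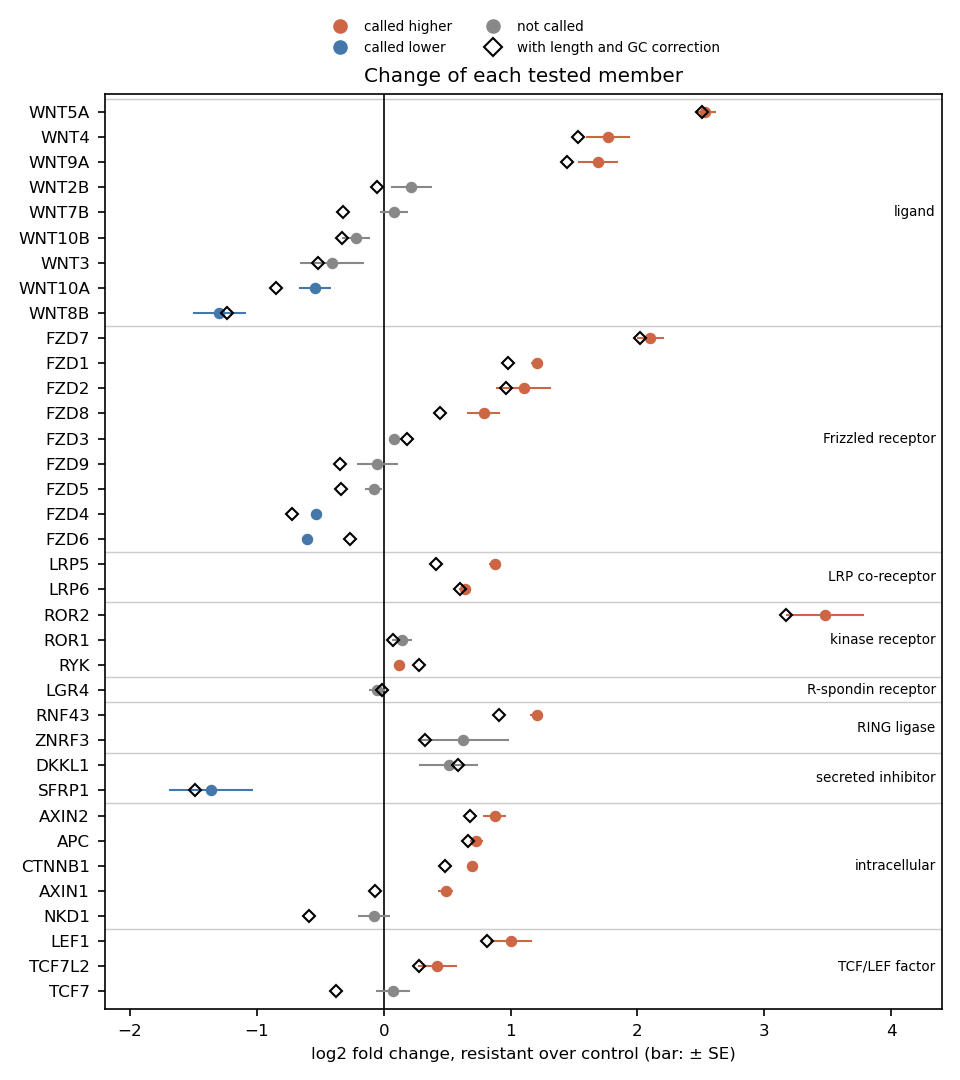
Log2 fold change of resistant over control cells for the 36 tested members (filled points, bars ± SE of the edgeR fit), coloured by call, with the value after the length and GC correction as open diamonds. ROR2 (3.48), WNT5A (2.54) and FZD7 (2.10) lie farthest to the right, and the diamond of AXIN1 sits at -0.07 where its point is at 0.49.

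RNF43, a ligase that clears Frizzled receptors and is itself induced by beta-catenin, rose from 27.2 and 28.4 CPM to 65.7 and 62.7 CPM (edgeR log2 fold change 1.21 ± 0.051 SE, adjusted p = 1.94e-09). Of its exonic bases, 57.6% are shared with a same-strand gene model, AC004687.2, in the annotation matched to the counts afterwards. The identifier of that model was not among those counted, though the annotation used for counting is not given. TSPOAP1-AS1, on the opposite strand, shares 20.3% of the exonic bases of RNF43, and whether counting used strand is not given. ZNRF3, the paralog of RNF43, was near the limit of detection and was not called (log2 fold change 0.63, edgeR adjusted p = 0.144). It had 11 and 8 counts in control and 30 and 21 in resistant libraries. LGR4, the R-spondin receptor of many epithelia, had 45.1 and 40.9 against 43.2 and 39.6 CPM, and the groups overlapped (log2 fold change -0.05, edgeR adjusted p = 0.483). LGR5, a stem cell marker of the intestine, had at most 1 count in any library. LGR6 had 5 and 10 counts in control and 0 and 3 in resistant libraries.

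Secreted inhibitors were nearly absent from both groups. Of 9 SFRP and DKK genes, 7 did not pass the filter, with at most 8 counts in any library. DKK1, an LRP antagonist often induced by beta-catenin, had 0 and 0 counts in control and 3 and 3 in resistant libraries, and SFRP2 had 2 and 6 against 0 and 0. SFRP1, a decoy that binds WNT ligands, fell from 0.629 and 0.855 CPM to 0.290 and 0.289 CPM (edgeR log2 fold change -1.36 ± 0.33 SE, adjusted p = 0.00341). It rests on 15 and 24 control counts and 14 and 12 resistant counts, and the call ended with DESeq2 (adjusted p = 0.117) and without control replicate 2 (0.0681). DKKL1, a relative of the DKK genes, had 21 and 29 counts in control and 58 and 65 in resistant libraries and was not called (log2 fold change 0.51, edgeR adjusted p = 0.074).

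Inside the cell, CTNNB1 (beta-catenin) went from 384 and 409 CPM to 646 and 638 CPM (edgeR log2 fold change 0.69 ± 0.038 SE, adjusted p = 1.94e-08). Per kilobase it was the second highest member in control cells after FZD6, at 33.2 ± 1.52 (SD, n = 2) against 34.4 ± 0.112, a difference within that spread. In resistant cells CTNNB1 was first, at 53.8 ± 0.517 against 22.7 ± 0.079 for FZD6. This order rests on the length used, 11927 bases for CTNNB1 and 4065 for FZD6, summed over all annotated exons. Before that division CTNNB1 was above FZD6 in control cells too, with means of 397 against 140 CPM. APC, a scaffold of the destruction complex, rose by a similar log2 fold change of 0.73, from 47.0 and 41.9 CPM to 73.4 and 73.8 CPM (SE 0.053, edgeR adjusted p = 1.83e-07). Genes for beta-catenin itself and for a negative regulator were thus both higher.

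AXIN2, a scaffold of the destruction complex and a widely used readout of beta-catenin activity, had 5.16 and 5.10 CPM in control and 9.50 and 9.31 CPM in resistant libraries. The edgeR log2 fold change was 0.88 ± 0.091 (SE, adjusted p = 4.51e-06), or 0.68 after the length and GC correction. Of the exonic bases of AXIN2, 25.2% are shared with AC004805.1 on the same strand. That gene had 1 and 0 counts in control and 0 and 0 in resistant libraries, and reads there may have been left out as ambiguous. AXIN1, the constitutive scaffold, rose from 17.7 and 18.5 CPM to 25.4 CPM in both resistant libraries (log2 fold change 0.49, edgeR adjusted p = 2.16e-05). With the length and GC correction this sign turned and the call ended, at -0.067 (adjusted p = 0.309). NKD1, a Dishevelled-binding inhibitor that beta-catenin induces in several tissues, was not called: it had 4.03 and 4.13 against 3.94 and 3.79 CPM (log2 fold change -0.08, edgeR adjusted p = 0.605). NKD1 was called lower with the length and GC correction (-0.59), and its sign turned with total count scaling (0.11).

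TCF and LEF factors, which bring beta-catenin to DNA, were low. LEF1 rose from 3.10 and 2.85 CPM to 5.12 and 6.88 CPM (edgeR log2 fold change 1.01 ± 0.17 SE, adjusted p = 0.000218). TCF7L2 had 2.89 and 2.32 CPM in control and 3.44 and 3.50 CPM in resistant libraries (log2 fold change 0.42, edgeR adjusted p = 0.0295). The TCF7L2 call was lost with DESeq2 (adjusted p = 0.177) and after the length and GC correction (0.128). It was also lost on leaving out control replicate 2 (0.217), resistant replicate 1 (0.051) or resistant replicate 2 (0.0589). TCF7 was not called, with 3.31 and 3.39 against 3.63 and 3.40 CPM (log2 fold change 0.07, edgeR adjusted p = 0.666), and turned to -0.37 with that correction (adjusted p = 0.0279). TCF7L1, known as a repressor, had 6 and 7 counts in control and 4 and 5 in resistant libraries. Per kilobase LEF1 made up 41.5% and 41.9% of the 4 factors in control and 51.8% and 59.2% in resistant libraries.

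Genes of the pathway outside the member list were read in 7 lists, by counts and medians beside the background of 42.3% higher and 31.4% lower among protein-coding genes. Of 6 secretion genes, 2 were higher and 3 lower (median log2 fold change -0.15). WLS, the carrier that takes WNT proteins to the cell surface, rose from 21.6 and 21.5 CPM to 54.0 and 56.1 CPM (log2 fold change 1.35, edgeR adjusted p = 1.16e-09). PORCN, the enzyme that attaches their lipid, rose less (log2 fold change 0.36, edgeR adjusted p = 0.0104), and its call ended with DESeq2 (adjusted p = 0.0877), without resistant replicate 2 (0.0541) and with the length and GC correction (0.063). The cargo receptors TMED2, TMED5 and TMED10, which serve many secreted proteins, were lower, by log2 fold changes of -1.19, -0.54 and -0.41. With total count scaling TMED5 and TMED10 were at -0.35 and -0.22, and TMED10 was at -0.22 after the length and GC correction too.

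Of 22 other secreted and membrane modulators, 9 were tested, with 3 higher and 4 lower (median -0.13). RSPO2, an R-spondin that acts through LGR receptors and was named after its values were seen, had 61 and 65 counts in control and 4 and 4 in resistant libraries. That is 2.56 and 2.32 CPM against 0.083 and 0.0965 CPM, a log2 fold change of -4.71 ± 0.30 (SE, with an adjusted p of 5.64e-08 in edgeR). APCDD1, a membrane inhibitor of WNT signalling that beta-catenin induces in several tissues, rose from 0.461 and 0.784 CPM to 4.04 and 4.25 CPM (edgeR log2 fold change 2.70 ± 0.21 SE, adjusted p = 4.12e-07). GPC4 was called higher (log2 fold change 0.93), and GPC3 and NDP lower (-0.45 each), though the NDP call ended with DESeq2. KREMEN1, RSPO1 and RSPO3 had 0 counts in every library.

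Nearly all tested nuclear partners of beta-catenin were higher, 15 of 17 with 0 lower and 2 not called (median 0.52). They include TLE2, TLE1 and TLE3, corepressors that bind TCF factors, with log2 fold changes of 1.22, 0.79 and 0.75. After the length and GC correction 12 genes of this list were higher and 1 lower, with TLE1 at 0.51 and TLE3 at 0.21. Of 24 Dishevelled, destruction complex and turnover genes, 17 were higher and 2 lower (median 0.37), or 12 and 4 after that correction. FRAT1, which keeps GSK3 from AXIN, rose from 3.52 and 4.45 CPM to 9.56 and 10.0 CPM (log2 fold change 1.28, SE 0.11, by edgeR), while the rise of CCDC88C (0.61) ended with the length and GC correction (0.0085, adjusted p = 0.88). SIAH1 and CSNK1G3 were called lower, at log2 fold changes of -0.48 and -0.34, and the call of CSNK1G3 ended with that correction (-0.054).

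Of 22 planar polarity and beta-catenin-independent genes, 13 were higher and 3 lower (median 0.42), and 7 were lower with the length and GC correction. CAMK2B, a calcium-dependent kinase subunit, rose from 1.89 and 2.42 CPM to 10.3 and 10.9 CPM (log2 fold change 2.28, edgeR adjusted p = 1.56e-08). PTK7, a co-receptor of polarity signalling, rose 2.33-fold (log2 fold change 1.22, or 0.72 after the length and GC correction), and CELSR1, a polarity cadherin, rose 2.00-fold (1.00, or 0.34 with the correction). MAPK8, the kinase JNK1 of this branch, fell by 0.63 on the log2 scale.

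Of 18 tested genes known to be induced by beta-catenin in several tissues, 11 were higher and 4 lower (median 0.58). BAMBI, a decoy TGF-beta family receptor, rose from 18.7 and 21.5 CPM to 62.1 and 62.6 CPM (log2 fold change 1.63, edgeR adjusted p = 9.71e-10), and SOX9 rose from 6.96 and 5.17 CPM to 16.4 CPM in both resistant libraries. MYC, which many other pathways also control, went the other way, from 186 and 199 CPM to 112 and 114 CPM (log2 fold change -0.77, edgeR adjusted p = 2.62e-08). VEGFA, a growth factor for blood vessels, had a log2 fold change of -0.80, and -1.33 after the length and GC correction. Of the 7 tested genes for cadherins and catenins of adherens junctions, where beta-catenin also serves, 6 were higher and 0 lower (median 0.72). CDH3 (P-cadherin), CTNND1 (p120-catenin) and CTNNA1 (alpha-catenin) rose 2.76-fold, 2.19-fold and 1.74-fold. The log2 fold change of CTNNA1 was 0.80, and 0.49 after the length and GC correction.

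**Figure D4:**
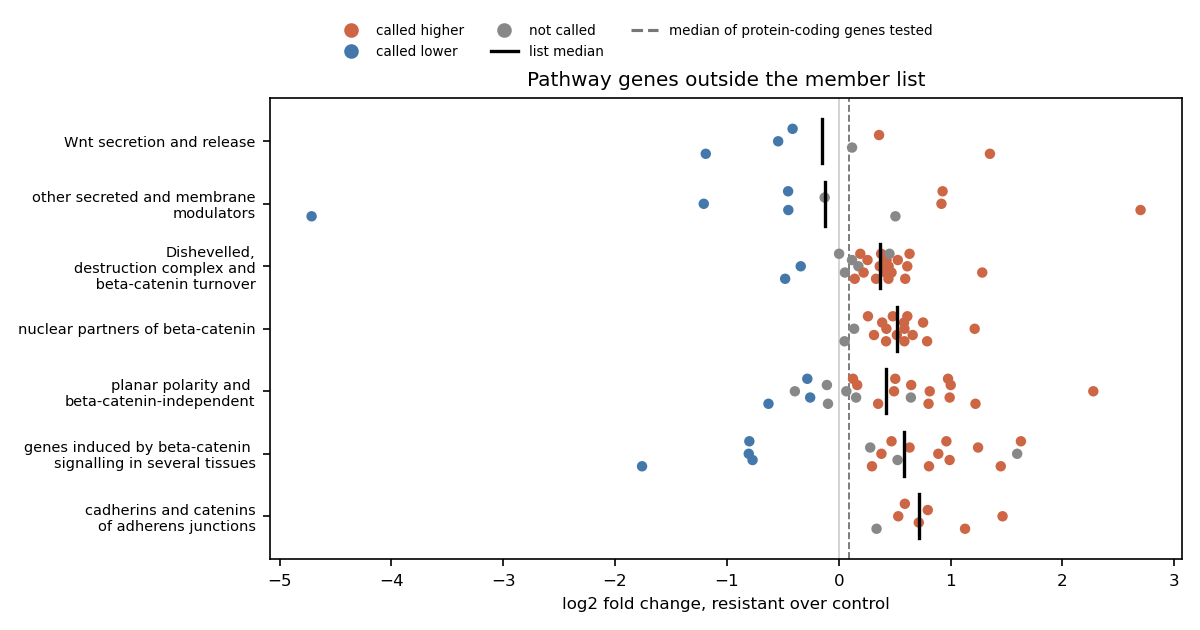
Log2 fold change of resistant over control cells for each tested gene of 7 pathway lists (points, coloured by call), with the list median (black bar) and the median of protein-coding genes tested (dashed line, 0.09). The list medians run from -0.15 for secretion to 0.72 for adherens junctions, and RSPO2 is the point at -4.71.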

How the data were processed

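RNA of 4 libraries, 2 per group, was counted per gene. The authors deposited raw read counts, 1 table per library, made with STAR 2.5.2b and HTSeq on GRCh38 (hg38), per the submitters' processing notes. For HTSeq, its version, overlap mode and use of strand are not given in the sources named here, nor is the gene annotation. The last 5 rows of each table are not genes and were left out. They held 74.4% and 71.08% of the records of control libraries and 55.41% and 56.87% of those of resistant libraries. Reads ambiguous between genes, as a share of gene and ambiguous reads, were 10.38% and 11.25% in control and 8.067% and 8.046% in resistant libraries.

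Identifiers were matched without version to GENCODE 29, which held 56753 of 60483. Members were taken by symbol among protein-coding genes. The members and lists were chosen with earlier results of these data known. Further luminal marker genes are not reported here. All members may be named. From each list, at most 3 called rises and 3 called falls were eligible to be named, where log2 CPM averaged 1 or more. Not every eligible gene is given, and RSPO2 was named after its values were seen.

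Counts were filtered with filterByExpr (minimum count 10), scaled by TMM, and fitted in edgeR 4.0.16 (R 4.3.3) by quasi-likelihood with an F test, group as the only term. P-values were adjusted by Benjamini-Hochberg over 20325 genes, with a call below 0.05. The fit left 2 residual degrees of freedom, and the SE is the log2 fold change divided by the square root of F. The script was tested on simulated data. CPM per kilobase divides CPM by the summed exon length. Replicate pairs differed by more than counting noise, with chi-square per degree of freedom of 6.46 and 2.6, and nothing says that they were separate cultures, so a p-value reflects just the variation among these 4 libraries, possibly technical.

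The 11 alternatives were total count scaling, DESeq2 1.42.0, no count filter, a filter of 1 CPM in 2 libraries, each library left out, the replicate number as a block, and smooth offsets for exon length and GC content (mgcv 1.9.3) without and with the block.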

Additional observations from a re-analysis of the deposited data

How the results depend on the processing

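Of the 23 called members, 18 kept direction and call in every one of the 11 alternatives that tested them, 15 higher and 3 lower. The exceptions are WNT10A, SFRP1, RYK, TCF7L2 and AXIN1. The count of members called higher ran from 16 to 23 over all settings. Leaving out 1 library gave 16 to 19 higher and 4 to 5 lower members, and a member median from 0.29 to 0.46, lowest without control replicate 2. Members called lower were 3 with DESeq2 and 10 with the length and GC correction, without or with the replicate block. DESeq2 called 4101 of all genes lower, and the length and GC correction 6343, or 6267 with the block. With total count scaling the median over all genes moved up by 0.188 (log2), and this scaling called 8615 genes higher and 4761 lower, and gave a member median of 0.64 with 23 members higher, among them ROR1, FZD3, DKKL1, WNT2B and WNT7B. With the length and GC correction this median was 0.279, and 0.278 with the replicate block as well. The cause of these moves was not tested.

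Secretion genes called higher were 1 with DESeq2, with the length and GC correction (without or with the replicate block) and at the lower end of 1 to 2 when a library was left out, namely without resistant replicate 2. With the correction, without or with the block, lower genes were 4 among Dishevelled and destruction complex genes, 1 among nuclear partners and 7 among planar polarity genes.

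Signs turned for 8 members. With the length and GC correction, without and with the replicate block, log2 fold changes were -0.056 and -0.055 for WNT2B, -0.32 and -0.32 for WNT7B, -0.067 and -0.067 for AXIN1, and -0.37 and -0.38 for TCF7. Total count scaling turned FZD5 (0.11), FZD9 (0.14), LGR4 (0.14) and NKD1 (0.11). Without a count filter these were 0.016, 0.044, 0.044 and 0.018, and DESeq2 gave 0.011 for FZD9 and 0.0060 for LGR4. With 1 library left out, FZD9 ran from -0.14 to 0.063 and LGR4 from -0.11 to 0.023. The labels give both groups replicate numbers 1 and 2 but do not say that these pair cultures. The difference between replicates correlated across genes at -0.023 between groups. With the replicate block alone 18 members were higher and 5 lower, and no member's call changed. The 21 members with at most 10 counts in any library were left out by the count filter. Without it, edgeR called WNT11 higher (adjusted p = 0.0354) and LGR6 (0.00118) and SFRP2 (0.00742) lower among them, and depth limits what can be said of all 21.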

Other observations

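WNT5A-AS1, a noncoding gene on the strand opposite to WNT5A, is no member and was looked at after the member values were seen. It lies on chromosome 3 at 55487699 to 55488308 (GENCODE 29) and begins 393 bases upstream of the outer RefSeq start of WNT5A. In GENCODE 29, however, WNT5A spans 55465715 to 55490539, so WNT5A-AS1 lies inside that gene. It shares no exonic base with WNT5A in that annotation, which places it in an intron. Whether intronic reads of WNT5A were counted to it was not tested. Its counts were 6 and 13 in control and 136 and 91 in resistant libraries, 2.77 ± 0.29 (SE) as an edgeR log2 fold change with adjusted p = 4.64e-06, near the 2.54 of WNT5A. The value ran from 2.44 to 3.32 over the alternatives that leave out 1 library, and the strand setting of the counts is not given. AP001528.1, a noncoding gene beside FZD4, had 65 and 75 counts in control and 76 and 69 in the deeper resistant libraries. Scaled to library size, that is 2.73 and 2.67 CPM in control against 1.58 and 1.66 CPM in resistant libraries. Its log2 fold change was -0.74 (adjusted p of 0.0019 in edgeR), and FZD4 had -0.53.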
